A study of Homo sapiens with 7 samples.

Results

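The genes for collagens, laminins and integrins were examined in human β-like cells that carry an inducible shRNA against METTL14 or a non-targeting construct. Members were the protein-coding genes whose symbol begins with COL and a number, with LAMA, LAMB or LAMC and a number, or with ITGA or ITGB and a number or letter, and whose mean over the 7 libraries was at least 5 CPM. CPM is the usual count unit scaled for library size, here with a TMM correction for library composition. Of 86 genes with such symbols in a table of 66025 gene IDs, 56 met this minimum. They were 8 fibrillar collagens, 5 basement-membrane collagens, 17 other collagens, 10 laminin chains, 14 integrin chains and 2 genes with an ITGB name that encode no integrin chain. At the limit, COL8A1 and COL13A1 were kept with means of 5.48 and 5.18 CPM, while ITGA11 and ITGA2B were left out with 4.83 and 4.52 CPM.

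The cells were derived from H1, an established human embryonic stem cell line, and sorted at stage 6 of differentiation with a fluorescent zinc probe. The line iKD2 carries a lentiviral shRNA that is switched on by doxycycline (Dox) and targets METTL14, part of the methyltransferase that places N6-methyladenosine (m6A) in mRNA. The groups were iKD2 Dox+ with Dox (3 libraries, a to c), iKD2 Dox- without Dox (2 libraries, b and c) and iSCR Dox+, H1 cells with a non-targeting construct and with Dox (2 libraries, a and b). All 7 libraries come from puromycin-selected, transduced cells, iKD2 rests on 1 shRNA, and iSCR without Dox was not analysed here.

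Collagens are secreted as triple helices of α chains. Fibrillar collagens assemble into the fibres of connective tissue, while collagen IV forms the sheet of the basement membrane together with laminins, which are trimers of an α, a β and a γ chain. Integrins are receptors of paired α and β chains that bind these proteins and link them to the cytoskeleton. In the pancreas the basement membrane of the islet is laid down mainly by endothelial cells, and β-cells contact it through integrins that share the ITGB1 chain.

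Total estimated counts were 14875429 to 20639156 per library. The iKD2 Dox+ libraries held METTL14, the targeted gene, at 18.7 CPM (a), 16.3 CPM (b) and 49.1 CPM (c), the iKD2 Dox- libraries at 39.4 and 22.6 CPM and the iSCR Dox+ libraries at 36.1 and 32.2 CPM. METTL14 was therefore highest in the library labelled iKD2 Dox+ c, which enters each direction given for that group. Its log2 fold change was -0.14 (SE 0.63, adjusted p = 1) against iKD2 Dox- and -0.28 (SE 0.63, adjusted p = 0.963) against iSCR Dox+ (edgeR), so that a lower METTL14 level was not shown in iKD2 Dox+ as a group. INS and CHGA, which mark endocrine β-cells, averaged 16060 and 15340 CPM over the 7 libraries, while MAFA, a factor of mature β-cells, lay between 0 and 38.2 CPM. The study calls these libraries independent biological samples, while the labels alone do not show that replicates were separate cultures. The p-values measure the spread between these libraries, which may be partly technical. In bulk RNA, fewer cells of a type and less RNA per cell cannot be told apart.

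Upstream sequences are given for 4 members on which the results below turn. COL5A1 and LAMB1 were higher in all 3 iKD2 Dox+ libraries than in all 4 control libraries, COL27A1 was lower in all 3, and COL12A1 had the second lowest p against iKD2 Dox-. A further stretch lies between the start sites of COL4A5 and COL4A6, which face away from each other. Sequences are from RefSeq on GRCh38.p14, within 250 bases upstream of the start site, without bases in any GENCODE 29 exon, and run 5′ to 3′ on the strand of the gene. They lie at chr9:134641553-134641773 (+, COL5A1), chr7:108003256-108003411 (-, LAMB1), chr6:75206054-75206303 (-, COL12A1), chr9:114155287-114155536 (+, COL27A1) and chrX:108439588-108439708 (+, the strand of COL4A5). Capitals mark matches on either strand to the short motifs named in the next paragraph.
COL5A1: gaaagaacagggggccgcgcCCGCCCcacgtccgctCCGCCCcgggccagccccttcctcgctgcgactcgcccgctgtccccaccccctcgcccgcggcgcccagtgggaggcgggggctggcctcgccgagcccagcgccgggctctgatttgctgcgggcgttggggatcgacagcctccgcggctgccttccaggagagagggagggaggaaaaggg
LAMB1: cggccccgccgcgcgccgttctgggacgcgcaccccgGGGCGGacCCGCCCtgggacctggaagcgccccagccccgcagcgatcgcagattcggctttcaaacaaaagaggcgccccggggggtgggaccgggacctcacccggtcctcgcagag
COL12A1: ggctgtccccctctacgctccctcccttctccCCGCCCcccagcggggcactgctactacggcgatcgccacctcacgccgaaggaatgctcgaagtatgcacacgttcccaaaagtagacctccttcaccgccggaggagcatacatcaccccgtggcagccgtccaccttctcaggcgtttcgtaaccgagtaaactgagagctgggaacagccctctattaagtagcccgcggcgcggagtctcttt
COL27A1: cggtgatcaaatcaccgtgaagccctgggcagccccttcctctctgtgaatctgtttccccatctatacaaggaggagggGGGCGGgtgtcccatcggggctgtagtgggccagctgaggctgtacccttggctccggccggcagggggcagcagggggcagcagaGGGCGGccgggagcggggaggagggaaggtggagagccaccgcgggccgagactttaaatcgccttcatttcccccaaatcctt
COL4A5 and COL4A6: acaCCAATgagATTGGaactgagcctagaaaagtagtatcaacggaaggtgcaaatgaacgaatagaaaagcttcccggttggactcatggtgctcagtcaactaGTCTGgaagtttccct

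The GC content of these stretches was 75.6% for COL5A1, 75% for LAMB1, 61.2% for COL12A1, 64.4% for COL27A1 and 44.6% for the COL4A5 and COL4A6 stretch. GGGCGG was present in the stretches of COL5A1, LAMB1, COL12A1 and COL27A1. Over the whole 250 bases it was found for 26 of the 41 members that the table listed (63.4%), against 42.6% of all 35116 windows of that length. All windows were taken without a limit by gene type or level, while each member counted once, so the sets compared are unlike. CCAAT was found for 8 of 41 (19.5%, against 32% of all windows), and these 8 included COL4A1, COL4A2, COL4A5 and COL4A6. The windows of COL4A1 and COL4A2 share 126 bases and those of COL4A5 and COL4A6 share 121. A match in shared bases counts for both genes, as do those shown for COL4A5 and COL4A6. CAGAC was found for 18 of 41 (43.9%, against 38%). Searches for TATAAA (6 of 41, 14.6%, against 10.7%) and TGANTCA (1 of 41, 2.44%, against 6.57%) gave no match in the stretches shown. Matches to these short motifs are descriptions of the letters and not of factor binding.

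In the first comparison, which asked what differed when the shRNA was induced within 1 line, no member of the 56 passed an adjusted p of 0.05 (edgeR quasi-likelihood test, Benjamini-Hochberg over 22926 genes), where 0.0393% of all genes did. At an unadjusted p under 0.05, 10 members were higher in iKD2 Dox+ and 0 were lower. That split depended on the method, since limma voom gave 9 higher and 4 lower (COL25A1, COL4A2, COL5A2 and LAMA3), and DESeq2, the separate fit of both groups and the fit with a replicate block gave 1 lower each. The 10 were COL3A1, COL1A1, COL1A2 and COL5A1 of the fibrillar collagens, COL12A1, COL6A3 and COL17A1 of the other collagens, LAMA5 and LAMB1 of the laminins, and ITGB4 of the integrins. The background share higher at that p was 2.04% of all genes tested and 2.9% of the 12463 protein-coding genes at 5 CPM or more, and the shares lower were 1.67% and 1.24%. The median log2 fold change was 0.37 over the members and 0.01 over all genes tested. DESeq2, run as an alternative, gave an adjusted p under 0.05 for 7 of the 10, and without iKD2 Dox- b the number at an unadjusted p under 0.05 was 6.

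The second comparison set iKD2 Dox+ against iSCR Dox+, a different line under the same Dox treatment, and shares its iKD2 Dox+ libraries with the first. No member of the 56 passed an adjusted p of 0.05, where 0.0262% of all genes did (DESeq2 called COL6A3 and COL14A1, 2 members). At an unadjusted p under 0.05, 4 members were higher (COL6A3, LAMB1, COL5A2 and COL14A1) and 1 was lower (COL23A1). The background shares were 3.94% higher and 2.78% lower over all genes tested, and 4.85% and 3.11% over protein-coding genes at 5 CPM or more. The median was 0.27 over the members and 0.08 over all genes tested. COL6A3 and LAMB1 were the members at an unadjusted p under 0.05 in both comparisons. The number of members at that p depended on single libraries, with 2 and 3 without iKD2 Dox- b and c, which enter only the estimate of the spread, and 9 each without iSCR Dox+ a or b.

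The third comparison set the control groups, iKD2 Dox- and iSCR Dox+, against each other and shares libraries with both others. No member of the 56 passed an adjusted p of 0.05, where 0.0131% of all genes did (DESeq2 called COL3A1, COL12A1 and COL5A2, 3 members). At an unadjusted p under 0.05, COL3A1, COL12A1 and LAMA5 were lower in iKD2 Dox- and COL5A2 and COL4A2 were higher. The background shares were 1.79% lower and 2.66% higher over all genes tested, and 2.39% and 2.96% over protein-coding genes at 5 CPM or more. The median was -0.23 over the members and 0.04 over all genes tested. COL3A1, COL12A1 and LAMA5 were 3 of the 10 members that were higher in iKD2 Dox+ against iKD2 Dox-. The number of members was 11 without iSCR Dox+ b.

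**Figure D1:**
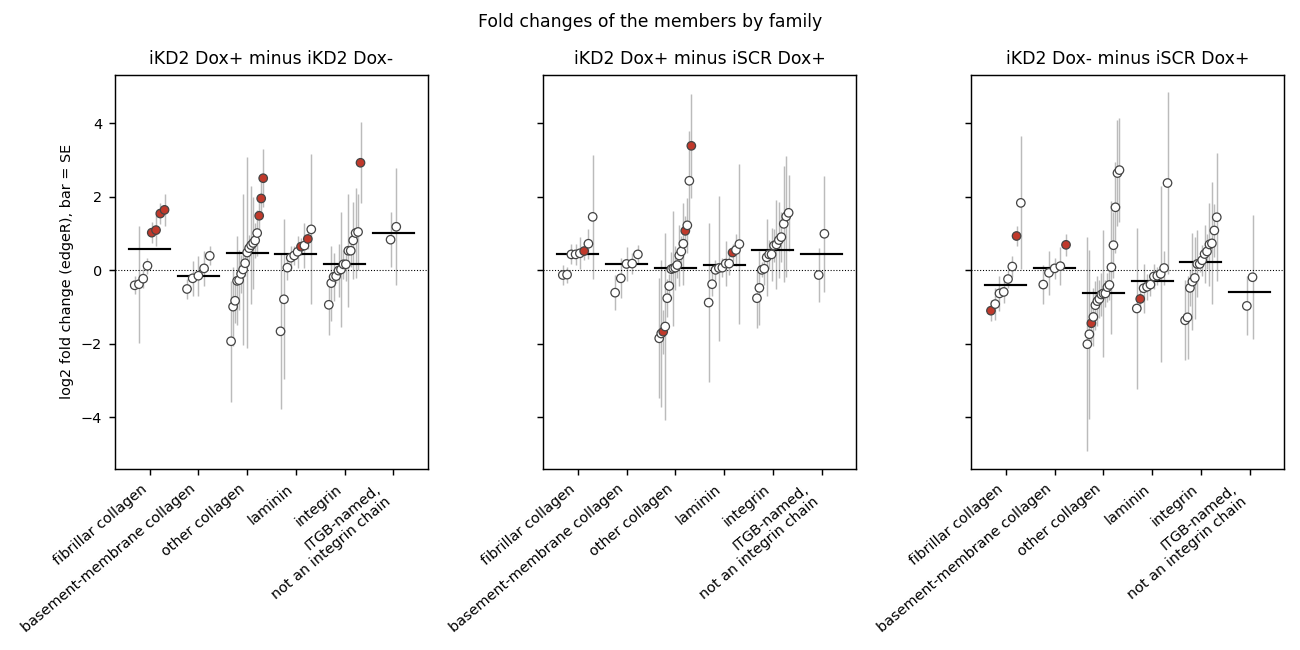
Log2 fold change of each of the 56 members (points, with SE as grey bars) by family (x axis) in the 3 comparisons, from the edgeR fit. Filled points have an unadjusted p under 0.05 (10, 5 and 5 members), black lines are family medians, and the filled points of the left panel all lie above 0.

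All 56 members were also compared by whether libraries overlapped. COL5A1, COL6A3, COL14A1 and LAMB1 were higher in each iKD2 Dox+ library than in any of the 4 control libraries, and COL27A1 was lower. That is 4 and 1 of 56, where 4.45% and 3.51% of protein-coding genes at 5 CPM or more behaved so, and the count of members is close to this background. Against iKD2 Dox- alone, 13 members were higher without overlap and 5 were lower (background 11.5% and 11.2%). Against iSCR Dox+ alone the counts were 5 and 5 (13.4% and 10.9%). iKD2 Dox- lay above both iSCR Dox+ libraries for 12 members and below them for 12 (18.6% and 16.8%).

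**Figure D2:**
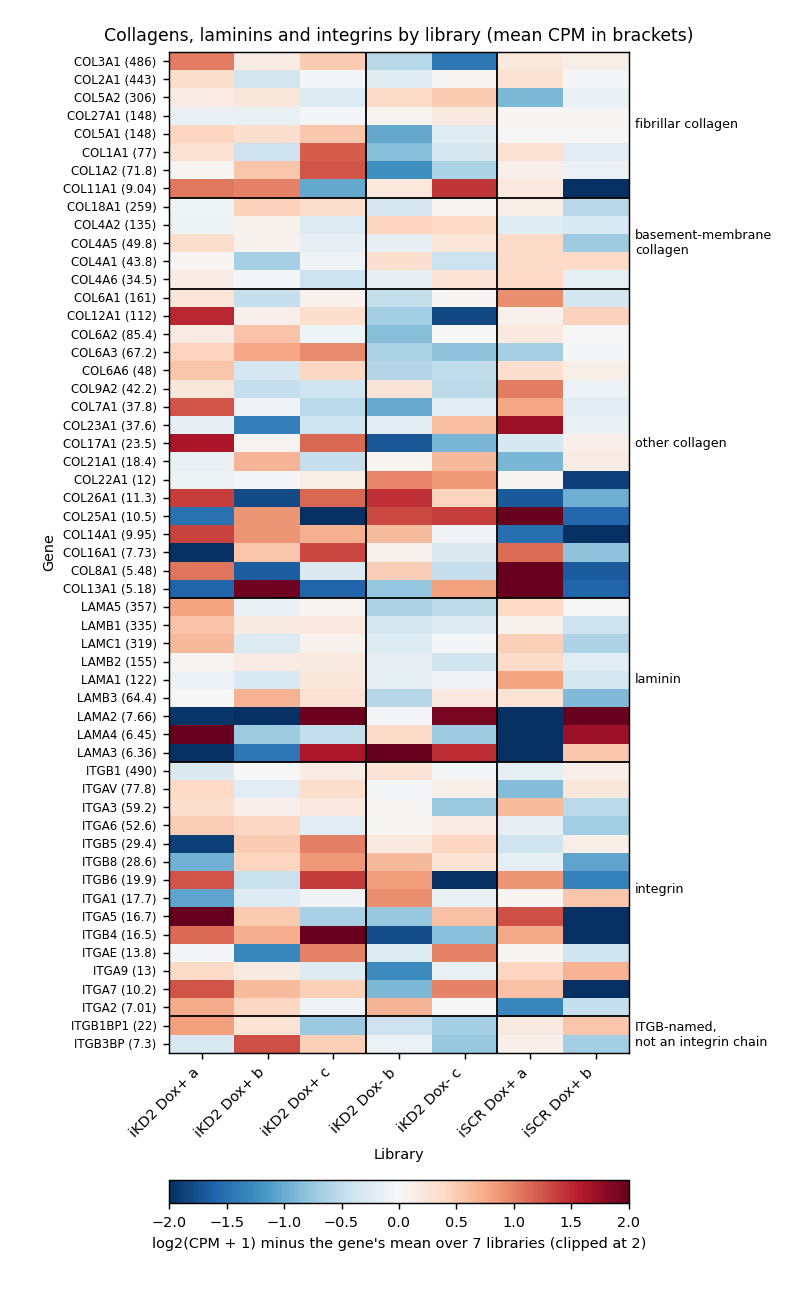
Level of the members (rows, grouped by family, mean CPM in brackets) in each of the 7 libraries (columns), as log2(CPM + 1) minus the mean of the gene, with colours clipped at 2. COL3A1, COL1A2, COL12A1 and COL17A1 are lowest in the iKD2 Dox- columns, and members with low means vary between libraries of a group.

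Fibrillar collagens were led by COL3A1 and COL2A1, with mean levels per length of 87.7 and 87.4 CPM per kb of the principal transcript. COL5A2 followed with 43.1 CPM per kb, and COL27A1, COL5A1, COL1A2 and COL1A1 lay between 19.1 and 11.5 CPM per kb. COL11A1, the lowest, was at 1.25 CPM per kb. The 8 genes together summed to 1626 to 2255 CPM in iKD2 Dox+, 1342 to 1428 CPM in iKD2 Dox- and 1573 to 1648 CPM in iSCR Dox+. At an unadjusted p under 0.05, 4 of 8 were higher in iKD2 Dox+ than in iKD2 Dox- and 0 were lower, with a family median of 0.57. The background was 2.9% higher and 1.24% lower of protein-coding genes at 5 CPM or more.

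COL3A1 (ENSG00000168542, chromosome 2, 188974320 to 189012746), the chain of collagen III, reached 880, 480 and 615 CPM in iKD2 Dox+ (libraries a to c), 295 and 159 CPM in iKD2 Dox- and 504 and 471 CPM in iSCR Dox+. The iKD2 Dox- libraries were the lowest of the 7, and the iSCR Dox+ libraries lay close to the lower iKD2 Dox+ ones. Against iKD2 Dox- it was higher by 1.54 on the log2 scale (SE 0.28, 95% CI 0.94 to 2.13, edgeR adjusted p = 0.0785), which was the lowest p of any member, and against iSCR Dox+ by 0.43 (SE 0.27, adjusted p = 0.699). Between the controls the log2 fold change was -1.10 (SE 0.29, adjusted p = 0.648). The adjusted p against iKD2 Dox- was 0.00983 when iKD2 Dox+ b was left out and 0.00512 when iKD2 Dox- b was, and with all 7 libraries it was 0.0398 with a replicate block, 3.59e-07 with no filter beyond 1 count and 9.3e-07 under DESeq2. Under the other 10 alternatives it was 0.0568 to 0.878. The call therefore rests on the libraries and the method used.

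COL1A1 and COL1A2 encode the α chains of collagen I. COL1A2 (chromosome 7, 94394561 to 94431232) measured 65.6, 93.2 and 152 CPM in iKD2 Dox+, 26.3 and 40.03 CPM in iKD2 Dox- and 67.8 and 57.9 CPM in iSCR Dox+. COL1A1 (chromosome 17, 50183289 to 50201632) measured 85.6, 52.0 and 162 CPM, 38.3 and 55.7 CPM and 86.1 and 59.3 CPM in the same order. Both chains were highest in the library labelled iKD2 Dox+ c, the one with the highest METTL14, and only COL1A2 separated iKD2 Dox+ from iKD2 Dox- without overlap. Their log2 fold changes against iKD2 Dox- were 1.64 (SE 0.43, adjusted p = 0.395) and 1.09 (SE 0.44, adjusted p = 1), and that of COL1A1 was 0.54 without iKD2 Dox+ c. The ratio of COL1A1 to COL1A2 counts ranged from 0.558 in iKD2 Dox+ b to 1.46 in iKD2 Dox- b, where the protein contains more of the former chain than of the latter.

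COL5A1 and COL5A2 encode the main chains of collagen V, which regulates the width of collagen fibres, and their estimates against iKD2 Dox- lay on opposite sides of 0. COL5A1 (chromosome 9, 134641774 to 134844843), whose upstream sequence is shown above, was at 189, 175 and 205 CPM in iKD2 Dox+, at 68.3 and 118 CPM in iKD2 Dox- and at 141 and 140 CPM in iSCR Dox+. Every iKD2 Dox+ library lay above all 4 controls. Its log2 fold change was 1.02 (SE 0.29, adjusted p = 0.661) against iKD2 Dox- and 0.43 (SE 0.29, adjusted p = 0.705) against iSCR Dox+.

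COL5A2 (chromosome 2, 189031896 to 189225312) measured 328, 341 and 242 CPM in iKD2 Dox+, 384 and 421 CPM in iKD2 Dox- and 157 and 266 CPM in iSCR Dox+. The iKD2 Dox- libraries were the highest of the 7. The log2 fold change was -0.41 (SE 0.24, adjusted p = 1) for iKD2 Dox+ against iKD2 Dox-, 0.52 (SE 0.25, adjusted p = 0.699) against iSCR Dox+ and 0.93 (SE 0.27, adjusted p = 0.742) between the controls. The value against iSCR Dox+ was 0.18 without iSCR Dox+ a and 0.96 without iSCR Dox+ b. COL5A2 lies 19149 bases from COL3A1, tail to tail, and the 2 genes differed in opposite directions between the control groups. The ratio of COL3A1 to COL5A2 counts was 1.41 to 2.68 in iKD2 Dox+, 0.768 and 0.379 in the iKD2 Dox- libraries, and 3.22 and 1.77 in the iSCR Dox+ libraries.

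COL2A1, the collagen of cartilage, and COL27A1, a fibrillar collagen also found in cartilage, were the steady members of the family. COL2A1 was at 559, 338 and 429 CPM in iKD2 Dox+, at 370 and 445 CPM in iKD2 Dox- and at 534 and 428 CPM in iSCR Dox+, with log2 fold changes of 0.12 (SE 0.22, 95% CI -0.34 to 0.58) and -0.12 (SE 0.22, 95% CI -0.58 to 0.34) for iKD2 Dox+ against the 2 controls. COL27A1 had the narrowest range of all members, 134, 134 and 146 CPM in iKD2 Dox+ against 155 and 170 CPM in iKD2 Dox- and 151 CPM in each iSCR Dox+ library. It was lower in all 3 iKD2 Dox+ libraries than in the 4 others, but its log2 fold changes were small, -0.23 (SE 0.26, adjusted p = 1) and -0.13 (SE 0.26, adjusted p = 0.957). COL11A1 ranged from 0 to 18.6 CPM, with iKD2 Dox+ libraries at 2.57 to 14 CPM.

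**Figure D3:**
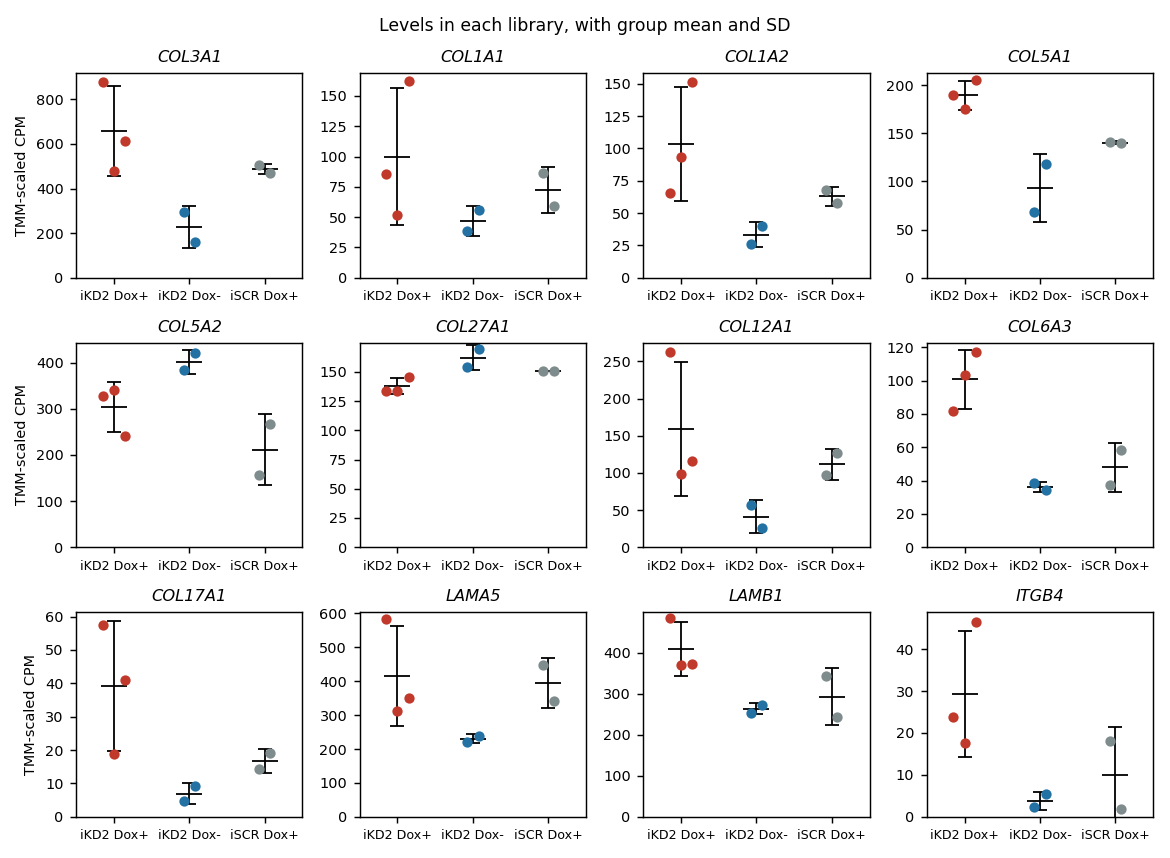
TMM-scaled CPM (y axis, linear, from 0) of 12 members in each library (points), with the mean and SD of each group in black (n = 3, 2 and 2). The iKD2 Dox- points lie below all iKD2 Dox+ points for COL3A1, COL1A2, COL5A1, COL12A1, COL6A3, COL17A1, LAMA5, LAMB1 and ITGB4, above them for COL5A2 and COL27A1, and overlap them for COL1A1.

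Basement-membrane collagens gave estimates on both sides of 0. Of the 5 members, COL18A1, COL4A2, COL4A5, COL4A1 and COL4A6, 0 had an unadjusted p under 0.05 in iKD2 Dox+ against either control, and the median log2 fold change was -0.15 against iKD2 Dox- and 0.17 against iSCR Dox+. The difference from the fibrillar family was not tested. Their summed level was 504 to 596 CPM in iKD2 Dox+, 506 to 566 CPM in iKD2 Dox- and 393 to 552 CPM in iSCR Dox+. COL4A3 and COL15A1 did not reach 5 CPM, nor did COL4A4 with a mean of 3.08 CPM.

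COL18A1, a heparan sulphate-bearing collagen from which endostatin is cleaved, had the highest level of the family, 43.7 CPM per kb. Its libraries held 238, 346 and 321 CPM in iKD2 Dox+, 199 and 262 CPM in iKD2 Dox- and 276 and 171 CPM in iSCR Dox+, with overlap in each pairing and log2 fold changes of 0.39 (SE 0.26) and 0.43 (SE 0.26). It shares 1401 exon bases with SLC19A1 on the opposite strand, and the strand setting of the counting was not given in the sources used here.

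COL4A1 and COL4A2, the chains of the common collagen IV trimer, are encoded head to head on chromosome 13. COL4A2 was at 124, 140 and 110 CPM in iKD2 Dox+, at 180 and 175 CPM in iKD2 Dox- and at 112 and 107 CPM in iSCR Dox+. COL4A1 was at 43.1, 26.3 and 40.5 CPM, at 53.8 and 31.3 CPM and at 55.7 and 56.0 CPM in that order. COL4A2 was thus highest in iKD2 Dox-, by 0.69 on the log2 scale (SE 0.30, adjusted p = 0.826) between the controls and -0.51 (SE 0.27, adjusted p = 1) for iKD2 Dox+ against iKD2 Dox-, while COL4A1 was lower in each of the 5 iKD2 libraries than in either iSCR library (-0.61, SE 0.48, adjusted p = 0.759, for iKD2 Dox+ against iSCR Dox+). The ratio of COL4A1 to COL4A2 counts lay between 0.179 and 0.368 in the iKD2 libraries and at 0.496 and 0.523 in iSCR Dox+. The genes have transcripts of similar length, and the trimer holds more of the COL4A1 chain.

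COL4A5 and COL4A6, which share the stretch shown above, were at 29.3 to 63.2 CPM and 25.3 to 45.02 CPM. Their counts kept a ratio between 0.991 and 1.71 in all 7 libraries. Their log2 fold changes against iKD2 Dox- were 0.05 (SE 0.47) and -0.15 (SE 0.54), and with these errors a difference was not detectable.

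Among the 17 other collagens, 3 were higher at an unadjusted p under 0.05 in iKD2 Dox+ against iKD2 Dox- and 0 were lower. The background was 2.9% higher and 1.24% lower of protein-coding genes at 5 CPM or more. COL12A1 (chromosome 6, 75084326 to 75206051), a collagen that coats fibres and joins them to other matrix, was at 263, 98.5 and 116 CPM in iKD2 Dox+, at 57.0 and 25.6 CPM in iKD2 Dox- and at 97.0 and 127 CPM in iSCR Dox+. The iKD2 Dox- libraries were the lowest, and iKD2 Dox+ a alone stood above iSCR Dox+. The log2 fold change was 1.95 (SE 0.45, adjusted p = 0.252) against iKD2 Dox-, 0.51 (SE 0.42, adjusted p = 0.787) against iSCR Dox+ and -1.44 (SE 0.47, adjusted p = 0.826) between the controls. Without iKD2 Dox- b the first became 2.64 and the last -2.13, and without iKD2 Dox- c they became 1.48 and -0.97. Without iKD2 Dox+ a the first was 1.38.

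Collagen VI, a beaded-filament collagen, is built from the COL6A1, COL6A2 and COL6A3 chains. COL6A3 (chromosome 2, 237324003 to 237414375) measured 82.0, 103 and 117 CPM in iKD2 Dox+, 38.3 and 34.1 CPM in iKD2 Dox- and 37.6 and 58.3 CPM in iSCR Dox+. All 3 iKD2 Dox+ libraries lay above all 4 controls, with log2 fold changes of 1.48 (SE 0.40, adjusted p = 0.518) and 1.07 (SE 0.39, adjusted p = 0.655). COL6A1, at 110 to 291 CPM with the highest value in iSCR Dox+ a, gave 0.19 (SE 0.34) and -0.43 (SE 0.34). COL6A2, at 45.4 to 123 CPM, gave 0.60 (SE 0.37) and 0.14 (SE 0.36). COL6A1 and COL6A2 lie 93046 bases apart on chromosome 21, whereas COL6A3 lies on chromosome 2. The ratio of COL6A3 to COL6A1 counts was 0.453, 0.937 and 0.723 in iKD2 Dox+, 0.350 and 0.220 in iKD2 Dox- and 0.129 and 0.497 in iSCR Dox+, which overlap.

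COL17A1 (chromosome 10, 104031286 to 104085957) and ITGB4 (chromosome 17, 75721328 to 75757818) are parts of the hemidesmosome, the junction that fixes epithelial cells to the basement membrane. COL17A1, a transmembrane collagen, was at 57.5, 18.8 and 41.1 CPM in iKD2 Dox+, at 4.77 and 9.10 CPM in iKD2 Dox- and at 14.2 and 19.3 CPM in iSCR Dox+. ITGB4, the integrin chain that pairs with ITGA6, was at 23.8, 17.7 and 46.4 CPM, at 2.34 and 5.39 CPM and at 18.1 and 1.74 CPM in the same order. Their log2 fold changes against iKD2 Dox- were the largest of members at an unadjusted p under 0.05 in that comparison, 2.5 (SE 0.79, adjusted p = 0.956) and 2.92 (SE 1.10, adjusted p = 1). That of ITGB4 was 3.64 without iKD2 Dox- c and 2.42 without iKD2 Dox+ c. Against iSCR Dox+ the fold changes of COL17A1 and ITGB4 were 1.22 (SE 0.74) and 1.56 (SE 1.03) with overlapping libraries.

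COL14A1, a collagen found along fibres like COL12A1, was at 20.5, 14.4 and 12.8 CPM in iKD2 Dox+, at 11.98 and 7.03 CPM in iKD2 Dox- and at 1.96 and 1.07 CPM in iSCR Dox+. The 5 iKD2 libraries all lay above the 2 iSCR libraries, with log2 fold changes of 3.38 (SE 1.42, adjusted p = 0.699) for iKD2 Dox+ and 2.64 (SE 1.43, adjusted p = 0.826) for iKD2 Dox- against iSCR Dox+. COL23A1, a transmembrane collagen, was at 27.0, 11.2 and 22.9 CPM in iKD2 Dox+, at 25.9 and 46.7 CPM in iKD2 Dox- and at 102 and 27.8 CPM in iSCR Dox+. Its log2 fold change of -1.67 (SE 0.60, adjusted p = 0.655) against iSCR Dox+ became -0.46 without iSCR Dox+ a, the library that stood apart, and -2.32 without iSCR Dox+ b. The 10 further members of the group, including COL9A2, COL7A1 and COL6A6, had no unadjusted p under 0.05, and the lowest of them, COL13A1, ranged from 0 to 20.5 CPM. A library at 0 allows up to 3 counts, or 0.146 to 0.203 CPM, for counting error only.

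Laminin chains summed to 1340 to 1947 CPM in iKD2 Dox+, 1063 to 1156 CPM in iKD2 Dox- and 1109 to 1726 CPM in iSCR Dox+. Per kb of principal transcript the highest were LAMB1 (58.4), LAMC1 (40.4), LAMA5 (31.2) and LAMB2 (27.4), which combine into the laminins of adult epithelial and vascular basement membranes. LAMA1, an early embryonic α chain, was at 12.7 CPM per kb, and LAMB3, a β chain of epithelial laminins, was at 14.96 CPM per kb. LAMA3, an epithelial α chain, was at 0.596 CPM per kb, and LAMA2 and LAMA4 at 0.795 and 1.001 CPM per kb, each of the 3 at 0 in at least 1 library. At an unadjusted p under 0.05, 2 of 10 chains were higher in iKD2 Dox+ against iKD2 Dox- (median 0.45 over the family) and 1 of 10, LAMB1, against iSCR Dox+ (median 0.13). The background shares higher were 2.9% and 4.85% of protein-coding genes at 5 CPM or more.

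LAMA5 (chromosome 20, 62307955 to 62367312) measured 585, 311 and 351 CPM in iKD2 Dox+, 221 and 240 CPM in iKD2 Dox- and 447 and 343 CPM in iSCR Dox+. It followed the pattern of COL3A1, low in iKD2 Dox-, with log2 fold changes of 0.85 (SE 0.26, adjusted p = 0.820), 0.07 (SE 0.25, adjusted p = 0.981) and -0.78 (SE 0.27, adjusted p = 0.826) in the 3 comparisons. LAMA5 shares 244 exon bases with ADRM1 on the opposite strand.

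LAMB1 (chromosome 7, 107923799 to 108003255) measured 485, 371 and 373 CPM in iKD2 Dox+, 254 and 273 CPM in iKD2 Dox- and 343 and 244 CPM in iSCR Dox+. The lowest iKD2 Dox+ library stood above the highest control. The log2 fold changes were 0.64 (SE 0.23, 95% CI 0.16 to 1.11, adjusted p = 1) and 0.48 (SE 0.23, 95% CI 0.01 to 0.95, adjusted p = 0.699) for iKD2 Dox+ against the 2 controls. LAMC1, which pairs with LAMB1 in most laminins, was at 482, 253 and 320 CPM in iKD2 Dox+, at 253 and 302 CPM in iKD2 Dox- and at 424 and 198 CPM in iSCR Dox+, and overlapped between the groups (0.34, SE 0.31, and 0.18, SE 0.31). The ratio of LAMB1 to LAMC1 counts was 0.808 to 1.47 over the 7 libraries.

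Of the 14 integrin chains, ITGB4 alone had an unadjusted p under 0.05 in any comparison. It was higher in iKD2 Dox+ against iKD2 Dox-, as were 2.9% of protein-coding genes at 5 CPM or more. ITGB1 stood far above the others with 130 CPM per kb, at 398, 491 and 537 CPM in iKD2 Dox+, 588 and 472 CPM in iKD2 Dox- and 423 and 522 CPM in iSCR Dox+. Its log2 fold changes of -0.16 (SE 0.20, 95% CI -0.58 to 0.26) and 0.01 (SE 0.20, 95% CI -0.41 to 0.43) carried the lowest SE of any member. Reads of ITGB1 are partly divided with the pseudogene ITGB1P1, which took 0.0482 to 0.103 of the ITGB1 count, so its level is uncertain by that order. The α chains with the highest levels were ITGA3 (12.1 CPM per kb), ITGAV (11.1) and ITGA6 (9.36), which bind laminins (ITGA3 and ITGA6) and fibronectin or vitronectin (ITGAV).

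ITGAV was at 64.7 to 99.7 CPM in iKD2 Dox+ and at 40.5 to 88.4 CPM in the controls. ITGA3 was at 60.8 to 70.9 CPM against 33.5 to 88.3 CPM, and ITGA6 at 43.1 to 72.0 CPM against 31.3 to 57.4 CPM. All 3 overlapped with the 4 control libraries, although ITGA3 was higher in each iKD2 Dox+ library than in both iKD2 Dox- libraries. ITGB5, ITGB6 and ITGB8, the β partners of ITGAV, ranged from 6.22 to 52.2, from 1.47 to 37.9 and from 11.7 to 47.6 CPM. ITGB6 varied widely within each group, and ITGB5 and ITGB8 within iKD2 Dox+. ITGB5 was at 29.1 and 34.5 CPM in iKD2 Dox-, above 19.1 and 27.8 CPM in iSCR Dox+. ITGB8 was at 40.3 and 31.1 CPM in iKD2 Dox-, above 22.1 and 11.7 CPM in iSCR Dox+. The collagen receptors ITGA1 and ITGA2 were at 7.36 to 31.8 and 1.96 to 11.2 CPM, and the fibronectin receptor ITGA5 at 0.468 to 45.1 CPM. The count of ITGA1 is uncertain as well, since it shares 475 exon bases with PELO on the same strand. Over the 14 chains the median log2 fold change was 0.16 against iKD2 Dox- and 0.55 against iSCR Dox+, and the summed level was 827 to 999 CPM in iKD2 Dox+, 806 to 933 CPM in iKD2 Dox- and 768 to 784 CPM in iSCR Dox+. ITGB1BP1, which binds the ITGB1 tail, and ITGB3BP, a centromere protein that binds the tail of ITGB3, averaged 21.96 and 7.30 CPM and had no unadjusted p under 0.05.

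**Figure D4:**
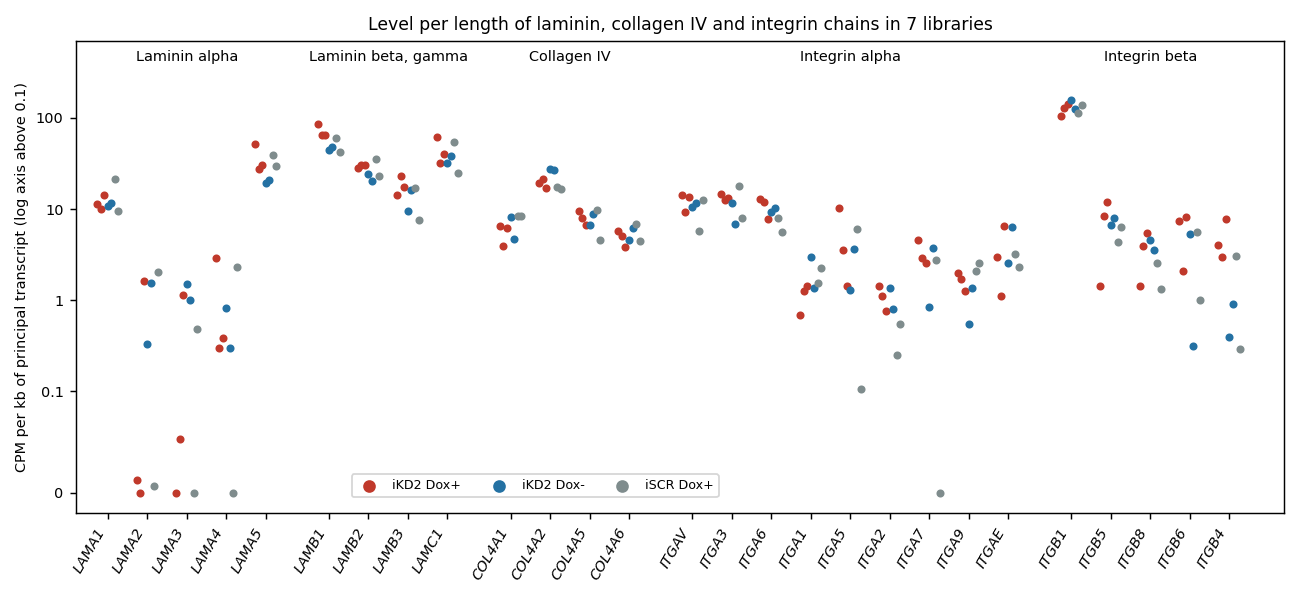
Level per length of laminin, collagen IV and integrin chains (x axis) in the 7 libraries (points, coloured by group), as CPM per kb of the principal transcript on a log axis above 0.1. ITGB1 exceeds every other chain shown, LAMB1, LAMC1 and LAMA5 lead the laminins, and LAMA2, LAMA3, LAMA4 and ITGA7 are at 0 in 1 or 2 libraries.

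Over the members as a whole, the spread between libraries was widest at low levels. In 7 of 56 the highest library was under 2 times the lowest, namely COL27A1 (1.27 times), ITGB1 (1.48), COL2A1 (1.66), COL4A2 (1.68), LAMB2 (1.72), COL4A6 (1.78) and LAMB1 (1.99). In 17 it was over 10 times the lowest or a library was at 0, and the 7 members with a library at 0 had means of 5.18 to 10.48 CPM. The iSCR Dox+ libraries differed from each other for several members, such as COL6A1 (291 and 117 CPM), LAMC1 (424 and 198 CPM) and COL23A1 (102 and 27.8 CPM).

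Other genes of the matrix were taken from 5 lists and counted where they had at least 5 CPM. Of 23 genes for collagen biosynthesis and crosslinking, 0 had an unadjusted p under 0.05 in iKD2 Dox+ against iKD2 Dox-, with a median log2 fold change of -0.01. Against iSCR Dox+, 0 were higher and 2 were lower, with a background of 4.85% and 3.11% of protein-coding genes at 5 CPM or more. The 2 lower genes were P4HA2, a subunit of a prolyl hydroxylase that stabilises the collagen helix (-1.02, SE 0.29, adjusted p = 0.438), and PLOD2, a lysyl hydroxylase of collagen telopeptides (-1.32, SE 0.35, adjusted p = 0.350). P4HA2 was at 74.3, 79.8 and 104 CPM in iKD2 Dox+, at 116 and 131 CPM in iKD2 Dox- and at 155 and 193 CPM in iSCR Dox+, so that the groups did not overlap. PLOD2 was at 101, 48.3 and 53.1 CPM, at 81.0 and 115 CPM and at 192 and 146 CPM in that order.

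Of 16 further basement-membrane proteins, 3 were higher at an unadjusted p under 0.05 in iKD2 Dox+ against iKD2 Dox- and 0 lower (median 0.57). The background was 2.9% higher and 1.24% lower of protein-coding genes at 5 CPM or more. Against iSCR Dox+, 2 were higher and 0 lower (median 0.62), with a background of 4.85% and 3.11%. SPARC, a collagen-binding glycoprotein, was the only gene of the 5 lists that passed an adjusted p of 0.05. It rose (log2 fold change 1.95, SE 0.24, adjusted p = 0.000922) from 121 and 95.4 CPM in iKD2 Dox- to 435, 453 and 367 CPM in iKD2 Dox+. The iSCR Dox+ libraries lay between, at 191 and 172 CPM. Against them SPARC did not pass in iKD2 Dox+ (1.21, SE 0.24, adjusted p = 0.116) or in iKD2 Dox- (-0.75, SE 0.25, adjusted p = 0.826). HSPG2, the proteoglycan perlecan, was at 483, 403 and 423 CPM in iKD2 Dox+, at 251 and 190 CPM in iKD2 Dox- and at 321 and 189 CPM in iSCR Dox+, above all controls in all 3 libraries. Its log2 fold change was 0.99 (SE 0.25, adjusted p = 0.334) against iKD2 Dox- and 0.77 (SE 0.25, adjusted p = 0.541) against iSCR Dox+. AGRN, the proteoglycan agrin, was the third against iKD2 Dox- (0.62, SE 0.25, adjusted p = 1).

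Of 13 other integrin ligands, 5 were higher against iKD2 Dox- and 0 lower (median 0.65), namely FN1, THBS1, CCN2, TGFBI and NPNT, and 2 of them, FN1 and THBS1, also against iSCR Dox+. The background share higher against iKD2 Dox- was 2.9% of protein-coding genes at 5 CPM or more, as above, and 4.85% against iSCR Dox+. CCN2 and NPNT were near the level of iSCR Dox+ in iKD2 Dox+ (0.14, SE 0.28, and 0.20, SE 0.60), and between the controls both were lower in iKD2 Dox- at an unadjusted p under 0.05 (-0.71, SE 0.31, and -1.40, SE 0.67). THBS1, thrombospondin, was at 202, 137 and 181 CPM in iKD2 Dox+, at 77.5 and 65.6 CPM in iKD2 Dox- and at 37.0 and 88.7 CPM in iSCR Dox+ (1.27, SE 0.36, adjusted p = 0.660, and 1.46, SE 0.37, adjusted p = 0.314). FN1, fibronectin, averaged 1038 CPM over the 7 libraries (0.78, SE 0.22, adjusted p = 0.661, against iKD2 Dox-). Of 23 integrin adaptors, VCL and FERMT2 were higher against iKD2 Dox- and 0 were lower (median 0.10). Against iSCR Dox+ these gave 0.44 (SE 0.26) and 0.34 (SE 0.43), while 2 others, ACTN4 and SHARPIN, were higher and 0 lower (median 0.28). ACTN4 and SHARPIN gave 0.62 (SE 0.24) and 2.54 (SE 0.93) there, and 0.37 (SE 0.23) and -0.17 (SE 0.83) against iKD2 Dox-. Of 15 matrix proteases and inhibitors, PLAU and PLAT were higher against iKD2 Dox- and 0 lower (median 0.40). Against iSCR Dox+, 1 other of these 15, MMP11, was higher and 0 lower (median 0.36). PLAT gave 1.44 (SE 0.61) against iKD2 Dox-, -0.56 (SE 0.57) against iSCR Dox+ and -1.99 (SE 0.65) between the controls, and PLAU 2.78 (SE 0.70), 1.29 (SE 0.65) and -1.48 (SE 0.70). None of these passed an adjusted p of 0.05.

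Markers of other cells differed between the same groups. Of 6 surface ectoderm or amnion-like markers, GABRP, VTCN1 and KRT5 were higher at an unadjusted p under 0.05 in iKD2 Dox+ against iKD2 Dox-, and VTCN1 passed the adjusted threshold (2.08, SE 0.38, adjusted p = 0.0451). The background at the unadjusted threshold was 2.9% higher and 1.24% lower of protein-coding genes at 5 CPM or more. Against iSCR Dox+ VTCN1 gave 0.81 (SE 0.36, adjusted p = 0.699) in iKD2 Dox+. Between the controls VTCN1 and KRT5 were lower in iKD2 Dox- at an unadjusted p under 0.05 (-1.27, SE 0.39, and -1.72, SE 0.60), so that iKD2 Dox- held the lowest levels of both. TP63 gave 2.07 (SE 2.12), IGFBP3 0.40 (SE 0.39) and ISL1 -0.32 (SE 0.29) for iKD2 Dox+ against iKD2 Dox-. Against iSCR Dox+ they gave 3.68 (SE 2.31), -0.19 (SE 0.39) and -0.35 (SE 0.29). The list summed to 809 to 1323 CPM in iKD2 Dox+, 637 to 695 CPM in iKD2 Dox- and 837 to 1132 CPM in iSCR Dox+. IGFBP3 was the largest part of the sum in each library. Of 5 ductal markers, SOX9 and KRT19 were higher at that p, and the sums were 834 to 960, 430 to 563 and 484 to 574 CPM. Of 9 mesenchymal or stellate markers, 8 reached 5 CPM and 0 were higher at that p, while the median log2 fold change was 1.15 against iKD2 Dox- and 0.63 against iSCR Dox+, above the 0.57 of the fibrillar collagens in the former comparison. ACTA2 gave 1.54 (SE 1.13), PDGFRA 1.49 (SE 1.46), PDGFRB 1.37 (SE 0.87), DCN 1.19 (SE 1.55), TAGLN 1.11 (SE 1) and LUM 0.76 (SE 0.68) against iKD2 Dox-, with wide errors. THY1 gave -0.24 (SE 1.6) there. Against iSCR Dox+, ACTA2 gave -0.01 (SE 1.07) and TAGLN -0.35 (SE 0.95), while PDGFRA, PDGFRB, DCN, LUM and THY1 lay above 0. VIM, at -0.41 (SE 0.23) against iKD2 Dox-, made up most of the sum, and the sums were 494 to 812, 664 to 720 and 666 to 871 CPM. Against iSCR Dox+ it was the 1 marker of the list lower at an unadjusted p under 0.05 (-0.52, SE 0.23). PDGFRB was at 28.95, 22.9 and 26.9 CPM in iKD2 Dox+ against 4.63 to 16.4 CPM in the controls. All 5 endothelial markers were below 5 CPM on average, with sums of 2.48 to 17.1, 4.25 to 7.55 and 1.003 to 17.1 CPM, and both pluripotency markers were at 0 or near it. Of 8 β-cell markers, 4 were lower at an unadjusted p under 0.05 in iKD2 Dox+ against iKD2 Dox-, namely CHGA, INS, PCSK1 and SLC30A8, with a median of -0.49. The sums of the 8 were 24730 to 28750, 32900 to 36620 and 38820 to 39260 CPM. Against iSCR Dox+, CHGA, PDX1 and INS were lower at that p and 0 were higher (median -0.28, background 3.11% lower and 4.85% higher). PCSK1 and SLC30A8 lay above 0 there (0.70, SE 0.37, and 0.25, SE 0.24). Between the controls, PCSK1 and SLC30A8 were higher in iKD2 Dox- at an unadjusted p under 0.05 (1.65, SE 0.40, and 0.80, SE 0.26), and INS was lower (-0.45, SE 0.12). Against iSCR Dox+, iKD2 Dox+ held less INS (-0.85, SE 0.10, adjusted p = 0.000471), at 11620, 13580 and 11370 CPM against 22300.0 and 21510 CPM, with 17390 and 14630 CPM in iKD2 Dox-. The part of these cell types in the collagen and laminin differences was not tested.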

How the data were processed

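RNA-seq libraries were prepared by the authors from sorted β-like cells with a stranded total-RNA kit. Per the labels and the study's methods, reads were trimmed with fastp and quantified with kallisto, and transcript values were added up per gene. The deposited table holds estimated counts for each gene, unscaled. Versions, genome build, annotation and strand setting are not given in the sources used here. After rounding and filterByExpr, 22926 genes were tested in R 4.3.3 with the robust quasi-likelihood test of edgeR 4.0.16 on TMM-scaled libraries. All 3 groups entered 1 fit without covariates. Benjamini-Hochberg adjustment covered all genes tested, at a threshold of 0.05, and unadjusted p-values under 0.05 were counted beside it. The common biological coefficient of variation was 1.14.

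Levels are TMM-scaled CPM. Symbols came from a gene name table (59369 of 66025 IDs matched), and positions, biotypes and lengths from GENCODE 29 on GRCh38 by gene ID. Levels per kb use the longest principal transcript. Matching symbols that are not protein-coding (22) were left out. Of the 56 members, 24 share exon bases with another gene and 2 have fractional counts in every library, and such counts are uncertain. Upstream sequences were listed for 41 members. Values of 1 member are not reported here, although it is included in counts, sums and medians.

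Named genes were members at an adjusted or unadjusted p under 0.05, the highest members of each family with their partner chains, members whose iKD2 Dox+ libraries did not overlap the controls, those nearest the minimum level, list genes past the adjusted threshold, METTL14 and markers. Other genes named were chosen after their values were seen. Members, lists and this rule were chosen with earlier results of these data known. As alternatives, libraries were scaled by DESeq2 size factors or by upper quartile, low genes were filtered differently, DESeq2 1.42.0 or voom of limma 3.58.1 was used, each pair of groups was fitted alone, replicate letters were blocked, and each library was left out. The fit was tested on simulated data.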

Additional observations from a re-analysis of the deposited data

How the results depend on the processing

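The number of members at an adjusted p under 0.05 was 0 in each comparison and stayed 0 under DESeq2 size factors, upper-quartile factors, a minimum mean of 5 CPM, limma voom and a separate fit of each pair of groups. In the first comparison, of iKD2 Dox+ with iKD2 Dox-, it was 7 under the DESeq2 Wald test (COL3A1, COL12A1, COL17A1, COL1A2, COL5A1, COL6A3 and LAMA5), 2 with no filter beyond 1 count and 0 to 1 with a library left out. Against iSCR Dox+ it was 2 under DESeq2 (COL6A3 and COL14A1), and between the controls 3 under DESeq2, 1 with no filter and 0 to 1 with a library left out. At an unadjusted p under 0.05 the 10 members of the first comparison became 6 to 12 with a library left out. The 5 of the second became 3 under DESeq2 size factors, 3 at a minimum mean of 5 CPM, 3 in the separate fit and 2 to 9 with a library left out. The 5 of the third became 9 under DESeq2 and 4 to 11 with a library left out. The cause of these shifts was not tested. All 20 fold changes at an unadjusted p under 0.05 kept their direction in all 300 alternatives, 19 of which gave an adjusted p under 0.05. These 20 were chosen for a low p in the same libraries, so a kept direction is no separate support for them.

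Replicate letters are shared between groups. Deviations of same-letter libraries from their group means correlated at -0.013 to 0.01 across genes. Deviations within a group of 2 libraries mirror each other, so this check cannot decide whether the letters mark pairs. With a replicate block, 1 member (COL3A1, adjusted p = 0.0398) passed in iKD2 Dox+ against iKD2 Dox-, with 0 in the others. The number of members was 71 at a minimum of 1 CPM, 46 at 10 CPM and 56 with plain CPM. COL13A1, LAMA2, LAMA3 and LAMA4 varied widely between libraries within groups of 2 or 3, and no difference in them was shown in the main fit.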
